A study of Astyanax mexicanus with 6 samples.

Results

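In the liver of the Mexican tetra, Astyanax mexicanus, 73 of 27420 genes were raised in fish of the Tinaja cave while the Surface and Pachon cave fish lay close together. Surface is the eyed river form, and Pachon and Tinaja are eyeless forms named after their caves. A gene was a member when it met 3 conditions in CPM, read counts scaled to library size with TMM factors, which assume that most genes do not change. The lower of the 2 Tinaja libraries had at least 2 CPM, it was at least 3 times the highest of the 4 Surface and Pachon libraries, and the Surface and Pachon means, each plus 0.5 CPM, differed by less than 2-fold. All 6 libraries were used in this choice, so the difference of Tinaja from the others is a description and is not tested here. The members were 0.266% of the table.

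Polyadenylated liver RNA was sequenced in strand-specific libraries, 2 from each population (n = 2). The groups differed by population, and no treatment is given for any of them. The sources used here do not give sex, age, diet or the number of fish behind a library. The spread between libraries may therefore be technical. Library totals ran from 22168622 to 29521610 counts.

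The liver stores glycogen and fat, makes most plasma proteins and breaks down foreign compounds and hormones. Cave populations of this species live in darkness on sparse food. They are known for storing more fat than surface fish and for altered control of blood sugar. In whole liver tissue, fewer cells of a type and less RNA per cell cannot be told apart.

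The deposited table names genes by Ensembl identifier, and 0 of its 27420 identifiers matched the gene table used here. No function, pathway or cell type is therefore given for any member, and the liver label could not be checked against marker genes. Printed by identifier are the member with the highest mean CPM in Tinaja, ENSAMXG00000015974, and the member with the highest ratio to the other populations, ENSAMXG00000001826. For this ranking the lower Tinaja CPM was divided by the highest Surface or Pachon CPM plus 0.5. Other members are called by their rank in mean Tinaja CPM. That rank follows reads, not reads per gene length, so it does not order members by transcript number.

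Members were mostly read at a low level even in Tinaja. The mean Tinaja CPM ran from 2.43 to 1092.2, with a median of 6.3. It was at least 100 CPM in 5 members, 10 to 100 in 17, 5 to 10 in 24 and under 5 in 27. At 2 CPM a library held 37 to 69 reads, and no member had fewer than 38 reads in a Tinaja library. All 73 members passed edgeR's filter on low counts, as a gene with that many Tinaja reads had to.

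Together the members took 0.339% of the counts in Tinaja 1 and 0.246% in Tinaja 2. Their share was 0.0289% and 0.0281% in Surface 1 and 2, and 0.0578% and 0.0452% in Pachon 1 and 2. The 3 members with the most Tinaja reads made up most of this sum in every library, from 63.3% of the members' summed CPM in Tinaja 2 to 75.2% in Pachon 1. Without them the sum was 946.6 and 1098.4 CPM in Tinaja 1 and 2, 89.3 and 101.1 in Surface 1 and 2, and 119 and 96.1 in Pachon 1 and 2. In these TMM-scaled sums Surface and Pachon overlapped. Over all members the TMM-scaled sums overlapped too, at 351.7 and 310.6 CPM in Surface 1 and 2, and 478.9 and 338.9 in Pachon 1 and 2. In the shares of counts, which also hold all members but are not TMM-scaled, both Pachon libraries lay above both Surface libraries. Both Tinaja sums lay far above the other 4, as the rule requires.

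**Figure D1:**
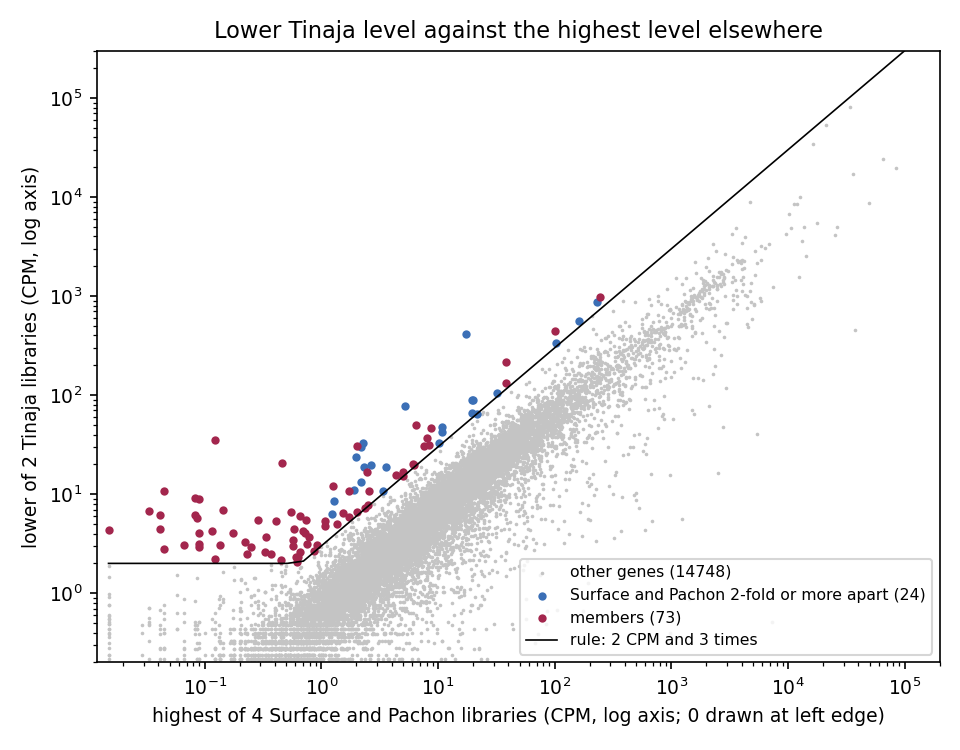
Each point is a gene with at least 0.2 CPM in both Tinaja libraries. The horizontal axis is its highest CPM among the 4 Surface and Pachon libraries and the vertical axis the lower of its 2 Tinaja CPM, both on log axes. The line is the rule of 2 CPM and 3 times. The 73 members are in red, and the 24 genes in blue met the line but had Surface and Pachon means 2-fold or more apart.

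The plot of lower Tinaja level against the highest level elsewhere places the members along the upper edge of a continuous cloud. The nearest members inside the 3-fold line had ratios of 3.03, 3.05 and 3.06, and the nearest genes outside had 2.94, 2.95 and 2.99. Another 76 genes with a ratio of 2 to under 3 met the other conditions. At the 2 CPM limit, the lower Tinaja values were 2.08, 2.18 and 2.22 CPM inside and 1.86, 1.94 and 1.97 CPM outside. At the Surface to Pachon limit, the folds were 1.89, 1.94 and 1.98 inside and 2.08, 2.16 and 2.17 outside. ENSAMXG00000015974 is the member at 1.89.

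Of the 97 genes that met the first 2 conditions, 24 failed the limit on the Surface to Pachon fold. Pachon had the higher mean in 16 of them and Surface in 8. These 24 were also highest in Tinaja but were spread out in the other populations, and they are not described further.

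The members fell into 4 kinds by their level outside Tinaja. Members with no more than 3 reads summed over a population's libraries are called off there. By that limit 13 members, or 17.8%, were off in both Surface and Pachon. In 33 more, or 45.2%, every Surface and Pachon library stayed under 1 CPM but at least 1 of the populations had more than 3 reads. Another 19, or 26%, had at least 1 CPM in each of the 4 libraries, and 8 were above 1 CPM in some and below it in others. In the map of members by library, a line sets off the 46 members under 1 CPM in all 4 libraries. The 4 kinds are not marked there.

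**Figure D2:**
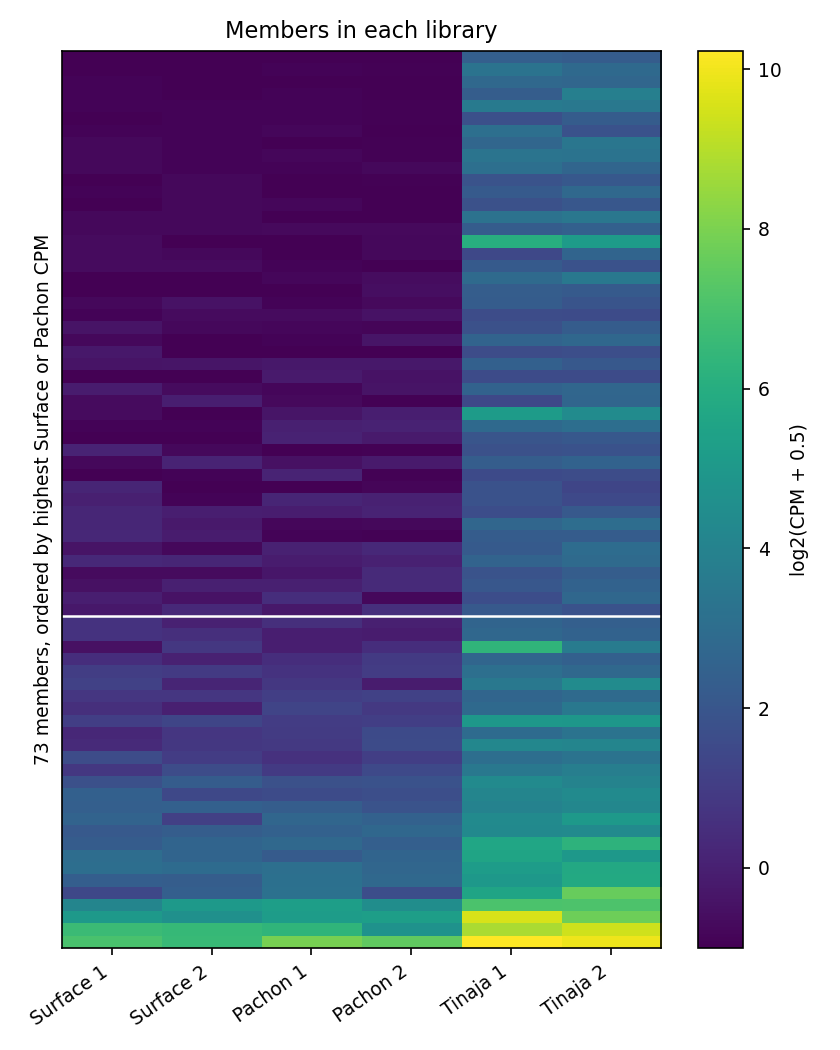
Each row is one of the 73 members and each column a library, coloured by log2(CPM + 0.5). Rows are ordered by the highest Surface or Pachon CPM, and the white line separates the 46 members under 1 CPM in all 4 of those libraries from the rest. Both Tinaja columns are brighter than the other 4 in every row, as the rule requires.

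Among the 13 members that were off in Surface and Pachon, ENSAMXG00000001826 had the most reads. It had 65.1 CPM in Tinaja 1 and 35.6 CPM in Tinaja 2, a mean of 50.4 CPM ± 20.9 (SD, n = 2). That came from 1641 and 651 reads, against 3 and 0 reads in Surface 1 and 2 and 0 and 3 reads in Pachon 1 and 2. The gene was thus near 0 in all 4 other libraries and ranked seventh by mean Tinaja CPM. Pooled over libraries, Tinaja exceeded the other 4 by a ratio of 976, with an exact 95% binomial interval of 448 to 2664. Such intervals treat reads as independent and cover counting error only, leaving out the spread between libraries.

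One member, ranked 48, had 0 reads in all 4 Surface and Pachon libraries. It had 121 and 80 reads in Tinaja 1 and 2, or 4.8 and 4.38 CPM. Against a floor of 3 reads over the 4 libraries it was at least 171-fold higher in Tinaja. The members ranked 22 and 24 also belonged to the off kind, with 4 and 6 reads over the 4 libraries. Their Tinaja values were 11.5 and 10.9 CPM for the first and 9.4 and 9.08 CPM for the other, so their Tinaja libraries lay close together. The pooled ratios were 313 (exact 95% binomial interval 122 to 1154) and 172 (78.2 to 471). Over the whole kind, the mean Tinaja CPM ran from 3.3 to 50.4 with a median of 6.3.

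The kind under 1 CPM outside Tinaja was the largest, and its Tinaja levels were low too, with mean Tinaja CPM at a median of 4.23 and at most 28.1. The lower Tinaja library exceeded the highest other library by a median of 7.82 times. Rank 13 headed this kind, with 35.6 and 20.7 CPM in Tinaja 1 and 2. It had 0.124 and 0 CPM in Surface 1 and 2, and 0.267 and 0.462 CPM in Pachon 1 and 2. In this kind 9 of the 33 members had a ratio under 5.

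The 19 members read at 1 CPM or more in every library had higher Tinaja levels, with a median of 30.8 CPM, and smaller ratios, with a median of 4.05. In 15 of them the ratio was under 5, and the highest was 15.1. ENSAMXG00000015974 had 1201.1 and 983.4 CPM in Tinaja 1 and 2, 128.7 and 93.8 CPM in Surface 1 and 2, and 243.1 and 178.7 CPM in Pachon 1 and 2. Each Pachon library was above each Surface library, and both Tinaja libraries were at least 4.05 times the highest of these. Its log2 fold change was 3.3 ± 0.34 (SE) over Surface and 2.39 ± 0.33 (SE) over Pachon in edgeR's fit. The call against Pachon was lost without Pachon 2, with an edgeR adjusted p of 0.0793, the highest over its 12 alternatives.

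The second member by CPM had 441.8 and 692.8 CPM in Tinaja 1 and 2, 101.2 and 91.1 CPM in Surface 1 and 2, and 80.9 and 25.6 CPM in Pachon 1 and 2. The fourth had 132.2 and 134.1 CPM in Tinaja 1 and 2, 16.7 and 33.6 CPM in Surface 1 and 2, and 38.6 and 22.6 CPM in Pachon 1 and 2. In the second the Pachon libraries were over 3-fold apart and the Tinaja libraries less so. In the fourth the Tinaja libraries nearly coincided while the Surface and Pachon libraries overlapped.

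Rank 12 combined a high ratio with little spread in every population. It had 31.1 and 30.5 CPM in Tinaja 1 and 2, 1.65 and 2.01 CPM in Surface 1 and 2, and 1.5 and 1.62 CPM in Pachon 1 and 2. Its log2 fold change was 4.08 ± 0.21 (SE) over Surface and 4.32 ± 0.21 (SE) over Pachon in edgeR's fit. Rank 6 had 50.3 and 76.3 CPM in Tinaja 1 and 2, and between 4.33 and 6.52 CPM in the 4 other libraries. Ranks 9, 10 and 11 had between 30.9 and 55.7 CPM in the Tinaja libraries and between 4.24 and 8.42 CPM in the others. In these 5 members the Tinaja libraries were less than 2-fold apart.

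**Figure D3:**
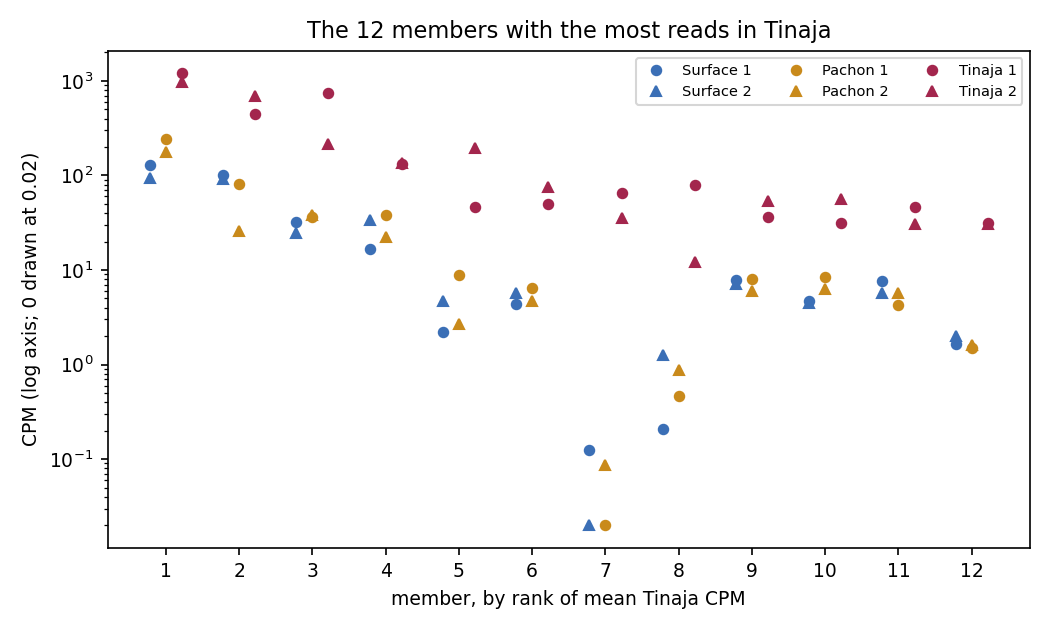
The 12 members with the highest mean Tinaja CPM, by rank, with CPM in each of the 6 libraries on a log axis. Circles are replicate 1 and triangles replicate 2, and 0 is drawn at 0.02. Ranks 3, 5 and 8 show the widest gaps between the red circle and triangle, and rank 7, ENSAMXG00000001826, has its Surface and Pachon points near the bottom.

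Some members differed strongly between the Tinaja libraries. Rank 8 had 80.2 and 12.1 CPM in Tinaja 1 and 2, a 6.63-fold gap, while its Surface and Pachon libraries ran from 0.206 to 1.25 CPM. Rank 5 went the other way, with 46.3 and 193.4 CPM, a 4.18-fold gap, against 2.18 to 8.76 CPM elsewhere. Rank 3 had 751.7 and 214.5 CPM, a 3.5-fold gap, against 24.7 to 38.6 CPM elsewhere. Each met the rule because its lower Tinaja library was still over 5 times the highest other library.

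In all, the Tinaja libraries were more than 2-fold apart in 8 members, 3 higher in Tinaja 1 and 5 in Tinaja 2. That is 11% of the members, against 4.79% of the 10058 genes with at least 2 CPM in both Tinaja libraries. The median size of the log2 difference was 0.35 in the members and 0.27 in those genes. Tinaja 2 was the higher library in 45 members, or 61.6%, and in 49.6% of those genes. The rule fixes the lower Tinaja library only and leaves the upper one free. Those 10058 genes were not matched to the members in level, and 51 members had a mean Tinaja CPM under 10. These shares were not tested, and no wider spread in the members is read from them. With 0.5 CPM added, 8 members were over 2-fold apart in Tinaja, 4 in Surface and 4 in Pachon. The added 0.5 CPM shrinks gaps at low levels, and 46 members lay under 1 CPM in all 4 Surface and Pachon libraries. These counts therefore do not compare the spread of the populations.

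**Figure D4:**
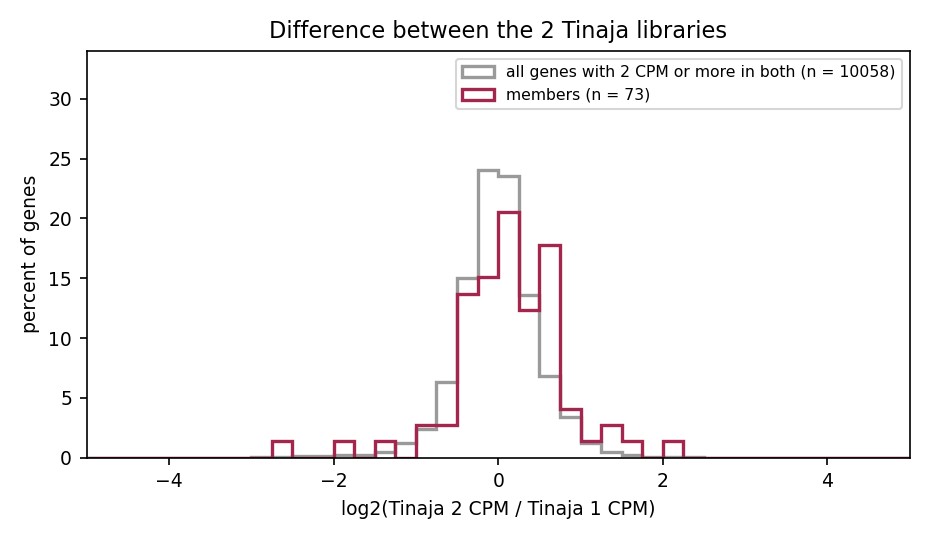
Distribution of log2(Tinaja 2 CPM / Tinaja 1 CPM) in percent of genes, for the 73 members (red) and the 10058 genes with at least 2 CPM in both Tinaja libraries (grey). The median is 0.18 for the members and -0.0034 for all these genes, and the members' widest values reach -2.73 and 2.06.

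Against Surface, Tinaja exceeded the Surface mean by a median of 2.78 over the members on the log2 scale with 0.5 CPM added, against -0.0051 over the 15282 genes tested. The values ran from 1.66 to 6.5. Against Pachon the median was 2.83 over the members and -0.014 over all genes tested, with a range from 1.55 to 6.55. Both comparisons share the Tinaja libraries, and low members are held back by the added 0.5 CPM.

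edgeR's quasi-likelihood test, fitted to all genes and with p-values adjusted over all of them, called 71 of the 73 members higher in Tinaja than in Surface, against a background of 8.12% of genes tested. Against Pachon it called 69 of 73 higher, with a background of 4.75%. The rule chose the members on these same differences, so the counts describe the members and add no support. The members not called were rank 51 and rank 70 against Surface and ranks 5, 51, 69 and 73 against Pachon. Apart from rank 5, with its wide Tinaja gap, these lay under 1 CPM in every Surface and Pachon library and had ratios of 3.06 to 3.89.

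In Surface and Pachon the member means, with 0.5 CPM added, were less than 2-fold apart by rule, and differences within that limit occurred at high and low levels. The fold was 1.89 in ENSAMXG00000015974, with both Pachon libraries above both Surface libraries, and 1.8 in the second member by CPM, where Surface was the higher. The median of this fold was 1.21. Surface had the higher mean in 40 members, Pachon in 32, and the means were equal in 1. The libraries of both populations did not overlap in 37 members, or 50.7%, against a background of 63.7% of genes tested. The third condition selects for closeness, so nothing is read from the lower share.

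Because 0.5 CPM is added before the fold is taken, genes off in one population and faintly read in the other could still qualify. There were 22 members off in Surface and 20 in Pachon, of which 9 were off in Surface but not Pachon and 7 in Pachon but not Surface. edgeR called 7 of 73 members different between Pachon and Surface, 3 higher and 4 lower in Pachon, against a background of 16.9% in either direction. The third condition and the few reads of most members outside Tinaja hold such calls down, so nothing is read from the lower share. When libraries were scaled by total counts, the median over all genes shifted to 0.55 (log2, Pachon over Surface). That shift was -0.48 for Tinaja over Pachon and 0.084 for Tinaja over Surface. Under this scaling 15 members were called higher and 3 lower in Pachon than in Surface, against a background of 30.1% in either direction. The same limit holds for that share. In rank 59, Surface had 0 reads and Pachon had 17 and 13 reads, against 86 and 70 in Tinaja 1 and 2. In rank 53, Surface had 17 and 9 reads and Pachon had 1 read in each library, against 107 and 78 in Tinaja 1 and 2. The weakest call, in rank 23, had an edgeR adjusted p of 0.0493. It rested on 2 reads in each Surface library and 0 in each Pachon library. DESeq2 called 8 members in either direction between Pachon and Surface, and 5 of them were among these 7. It called 10.1% of all genes higher in Pachon, a share that leaves out genes called lower. Of the 7, 6 were in the kind under 1 CPM and 1 reached 1.07 CPM in Surface 1, so for these low members "only in Tinaja" describes the size of the level and not presence against absence.

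Choosing the genes on 5 libraries and reading them in the sixth gives values that the choice did not use. Without Tinaja 2, 102 genes met the rule, and 81 of them, or 79.4%, were at least 3 times the highest Surface and Pachon library in Tinaja 2. The background was 1.99% of genes tested. Without Tinaja 1, 170 genes met the rule, and 81 of them, or 47.6%, passed in Tinaja 1, with a background of 1.47%. The Surface and Pachon libraries in these ratios were also used in the choice, so the reading is new for the Tinaja side only, and the background carries no such choice.

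The library left out thus mattered more on one side than on the other, and this depended on scaling. With total counts in place of TMM, an alternative added after the data were seen, 91 genes met the rule without Tinaja 1 and 65.9% of them passed. Without Tinaja 2 it was 88 genes, of which 69.3% passed. The background under total counts was 199 of the 15282 genes tested in Tinaja 1 and 207 in Tinaja 2. Under both scalings most of the genes chosen lay above all 4 other libraries in the Tinaja library left out. With TMM these were 163 of 170 in Tinaja 1 and 100 of 102 in Tinaja 2. The background for this looser criterion was 3354 of the 15282 genes tested in Tinaja 1 and 3875 in Tinaja 2.

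Leaving out a Surface or Pachon library gave sets of 77 to 100 genes. The Tinaja libraries in these ratios were also used in the choice, which favours genes high in Tinaja, so only the library left out is a new reading. The background, over all genes tested, carries no such choice. Without Surface 1, 96 genes met the rule, and in 75 of them, or 78.1%, Surface 1 was at most the rule's fraction of the lower Tinaja library, against a background of 5.1%. Without Surface 2 it was 71 of 89, or 79.8%, with a background of 5.46%. Without Pachon 1 it was 79 of 100, or 79%, with a background of 3.95%. Without Pachon 2 it was 71 of 77, or 92.2%, with a background of 3.99%. The library left out was below the lower Tinaja library in 94, 88, 99 and 77 genes of these sets, in the same order. The background for this looser criterion was 6074, 6070, 5898 and 5815 of the 15282 genes tested.

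**Figure D5:**
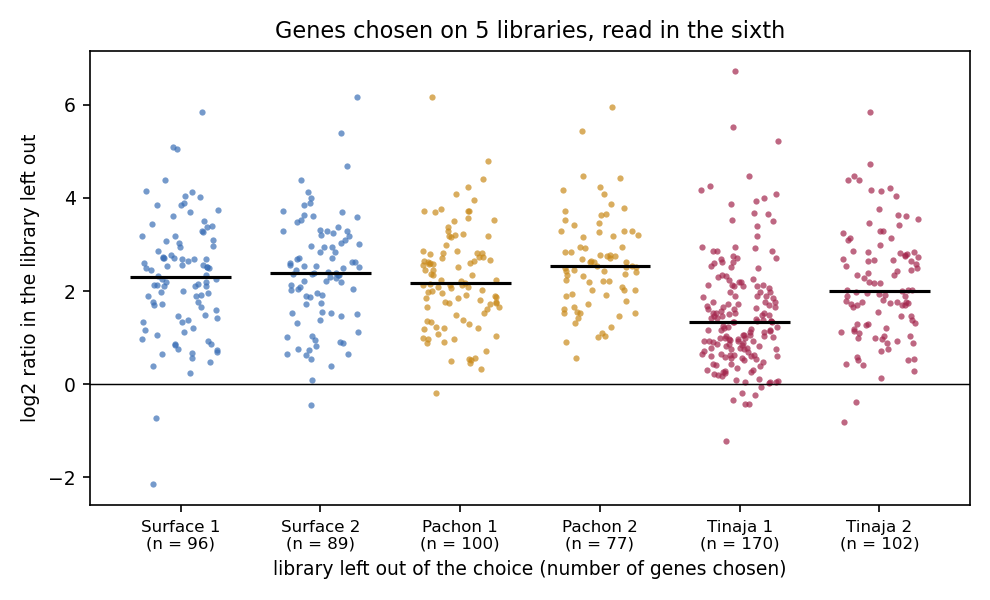
For each library left out of the choice, points are the genes chosen on the other 5. For Tinaja libraries the vertical axis is the log2 ratio of the library left out to the highest Surface or Pachon library. For Surface and Pachon libraries it is the log2 ratio of the lower Tinaja library to the library left out. Both have 0.5 CPM added, and black lines are medians, from 1.33 for Tinaja 1 to 2.54 for Pachon 2.

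The same 3 conditions applied with another population as the raised one found 83 genes for Pachon and 110 for Surface. Of the Pachon genes 15, or 18.1%, and of the Surface genes 13, or 11.8%, were off in both other populations, beside 13, or 17.8%, for Tinaja. The median ratio was 6.78 for Pachon and 5.99 for Surface, beside 6.69 for Tinaja. At least 100 CPM in the raised population was reached by 2 Pachon, 11 Surface and 5 Tinaja genes. The summed CPM in the raised population was 1307.4 and 1351.7 in Pachon 1 and 2, 3341.2 and 2989 in Tinaja 1 and 2, and 9066.9 and 11550.8 in Surface 1 and 2. These sets were each chosen on their own levels, and no difference between them was tested.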

How the data were processed

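The authors deposited a table of whole-number read counts per Ensembl gene for 6 liver libraries, unnormalised as far as the values show. Per the submitters' processing notes, bcl2fastq 2.20 and STAR were used. The table's name gives assembly 2 and Ensembl release 96. No read counter or strand setting is given in the sources used here, and near-identical, overlapping and antisense genes are therefore uncertain.

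R 4.3.3 and edgeR 4.0.16 gave TMM-scaled CPM on all table genes for the rule. For fold changes, genes were filtered by expression (count minimum 10), leaving 15282, and all 6 libraries entered one robust quasi-likelihood fit with a term per population (two-sided, Benjamini-Hochberg, called at adjusted p below 0.05). DESeq2 1.42.0, other scalings, no filter, a replicate block and leaving out each library were alternatives. SE was taken from the F statistic and the log2 fold change and is approximate. The fit was tested on simulated data. Changes were planted there only in better-read genes, so that test does not cover members near 0 outside Tinaja.

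The members and lists were chosen with earlier results of these data known. Genes are named by highest mean Tinaja CPM and by highest ratio of the lower Tinaja CPM to the highest other CPM plus 0.5, 1 identifier each, others by rank. Gene and marker lists by symbol could not be used. Sequences were not used here.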

Additional observations from a re-analysis of the deposited data

Results flagged for a closer look

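Both members printed by identifier stood out because Tinaja and Pachon differed from Surface by unequal amounts, tested as Tinaja against Pachon. The choice of members fixes this difference, and it is no separate support. For ENSAMXG00000015974 the log2 difference was 2.39. For ENSAMXG00000001826 it was 9.96, a fitted value that depends on the prior count.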

How the results depend on the processing

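The number of genes meeting the rule was 73. It was 149 with a ratio of at least 2, 44 with at least 5, and 40 with at least 5 CPM in the lower Tinaja library. It ran from 77 to 170 when a library was left out, 170 being without Tinaja 1. With total counts 56 genes met the rule, of which 52 were members, and with RLE size factors 74, which held all 73. With 1 library left out, no more members were called higher than Surface or higher than Pachon than in the fit to all 6 libraries. The share of all genes called higher fell as well. A lone Tinaja library is assumed to vary like the other populations. Members called between Pachon and Surface were 4 to 7 with a library left out, 4 without Surface 1 and without Pachon 1. With a library left out, the share of all genes called higher in Pachon fell too. A drop in members called can therefore not be read as particular to them. Members called were 18 with total counts, and 2 with only those populations in the fit. In that last fit 8.78% of all genes were called higher in Pachon, against 8.8% in the fit to all 6 libraries. The filter on low counts was rerun on those libraries alone, so members with few reads outside Tinaja could leave the test. How many members it tested is not given, so the drop is not read as particular to them. These shares leave out genes called lower, so they are not the members' background. The other count alternatives stayed within 1.5 times the value given.

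Deviations of same-numbered libraries correlated at 0.05 (Surface and Pachon), 0.017 (Surface and Tinaja) and -0.12 (Pachon and Tinaja) across 12588 genes. These values cannot settle whether replicate numbers pair the libraries. With a replicate block, members called were 68 over Surface, 67 over Pachon and 5 between Pachon and Surface. The share of all genes called higher in Tinaja in that fit was 6.52% over Surface and 3.48% over Pachon. In Pachon over Surface 7.11% were called higher. That share leaves out genes called lower, while the 5 members count either direction, so it is not their background. With the Tinaja numbers crossed, added after the data were seen, 69 were called over Pachon, against 4.72% of all genes. For both members printed by identifier, 47 of 48 alternative fits kept direction and side of the threshold. The exception was ENSAMXG00000015974 over Pachon without Pachon 2. Low depth limits the 46 members under 1 CPM outside Tinaja, where 1 read is 0.0289 to 0.0447 CPM.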
